A study of Mus musculus with 9 samples.

Results

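The genes described here are 10 of 48663 named entries in the count table: the regulatory T cell factor Foxp3, Lrrc32, which encodes GARP, and 8 genes of TGF-beta signalling (Tgfb1, Tgfbr1, Tgfbr2, Smad2, Smad3, Smad7, Ski and Skil). They were picked by name as a pathway set, at a time when their levels in these libraries were known, so their own values are given as a description without p-values. Mice were infected with lymphocytic choriomeningitis virus (LCMV Arm, a strain that is cleared), and on day 30 spleen T cells that bound a viral peptide tetramer were sorted for RNA sequencing. CD4 ThpokAD cells bound the GP66:I-Ab tetramer and came from Ox40-Cre+ Thpokfl/fl mice, so that Cre acts in cells that switch on Ox40 (Tnfrsf4), as activated CD4 T cells do. CD8 control cells bound the GP33:H-2Db tetramer and CD4 control cells bound GP66:I-Ab; both came from Ox40-Cre- mice. Each group had 3 libraries. The labels give no age and do not say which Thpok alleles the control mice carried, and since all ThpokAD mice carried Cre, effects of Cre and of Thpok loss cannot be told apart. Lineage, viral peptide and tetramer go together in the CD8 control and CD4 control groups, and cannot be told apart either.

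TGF-beta is secreted in a latent form that stays folded with its propeptide. GARP holds this latent complex on the surface of regulatory T cells, and integrins with an alpha-V chain release the ligand from it. The free ligand joins a type 2 receptor (Tgfbr2) to a type 1 receptor (Tgfbr1), which phosphorylates Smad2 and Smad3 so that they enter the nucleus with Smad4. Smad7 blocks the receptor as a feedback inhibitor, while Ski and SnoN (encoded by Skil) hold Smad complexes in a repressed state. In T cells the pathway restrains effector responses, and with IL-2 it can switch on Foxp3.

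Library totals were 18517118 to 20245185 counts in CD4 ThpokAD, 19850495 to 38981516 in CD8 control and 16664474 to 18357021 in CD4 control. The deleted gene followed the labels: Zbtb7b, which encodes Thpok, stood at 0.807 ± 0.0953 CPM in CD4 ThpokAD, at 20.8 ± 2.87 CPM in CD8 control, and at 44.97 ± 5.68 CPM in CD4 control (SD, n = 3). All libraries carried T cell transcripts, with a summed level of 8 T cell markers of 7410 to 7780 CPM in CD4 ThpokAD, 6690 to 8350 CPM in CD8 control and 7210 to 7660 CPM in CD4 control. Markers of the CD4 lineage (3 genes) summed to 672 to 824 CPM in CD4 ThpokAD, 21.1 to 30.6 CPM in CD8 control and 1740 to 1860 CPM in CD4 control, and those of the CD8 lineage (3 genes) to 193 to 204 CPM, 2920 to 3930 CPM and 21.9 to 39.8 CPM in the same order. Levels here are CPM, counts scaled to a common library size with TMM factors. A gene is called where the adjusted p of edgeR's quasi-likelihood test, fitted across all 15738 genes that passed the filter on low counts, is under 0.05. All 10 members passed that filter, and Foxp3 passed it only through the CD4 ThpokAD libraries.

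Promoter windows, from 250 bases before to 50 after a start site, were found for 6 of the 10 members in the RefSeq table of build GRCm38.p6. Those of 3 genes are shown because the levels of these genes set the groups apart: Foxp3, high in CD4 ThpokAD, and Tgfbr2 and Ski, which shared a pattern with both other groups below CD4 control. Each reads 5′ to 3′ on the gene's strand, and capitals mark the 5-letter Smad box CAGAC on either strand.
Foxp3 (chrX:7579426-7579725, plus strand): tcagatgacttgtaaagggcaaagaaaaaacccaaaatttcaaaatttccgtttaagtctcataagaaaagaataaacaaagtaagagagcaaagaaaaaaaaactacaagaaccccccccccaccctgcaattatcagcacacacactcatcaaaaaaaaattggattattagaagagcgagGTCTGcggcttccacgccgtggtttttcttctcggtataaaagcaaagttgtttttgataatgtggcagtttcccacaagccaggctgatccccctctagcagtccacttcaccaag
Tgfbr2 (chr9:116175314-116175613, minus strand): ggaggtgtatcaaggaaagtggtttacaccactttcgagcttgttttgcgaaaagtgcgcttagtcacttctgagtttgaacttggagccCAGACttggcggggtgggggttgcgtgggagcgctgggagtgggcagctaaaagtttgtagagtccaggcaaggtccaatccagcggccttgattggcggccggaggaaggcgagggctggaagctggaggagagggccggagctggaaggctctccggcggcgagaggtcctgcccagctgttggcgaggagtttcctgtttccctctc
Ski (chr4:155222486-155222785, minus strand): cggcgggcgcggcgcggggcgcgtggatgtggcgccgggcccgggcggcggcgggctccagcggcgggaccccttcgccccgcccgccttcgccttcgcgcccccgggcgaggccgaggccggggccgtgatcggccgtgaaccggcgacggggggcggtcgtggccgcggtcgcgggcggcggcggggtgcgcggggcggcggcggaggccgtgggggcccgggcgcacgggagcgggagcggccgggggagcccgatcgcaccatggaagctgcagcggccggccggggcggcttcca
RefSeq lists 2 Foxp3 start sites; the first is shown, and the window of the second (chrX:7580233-7580532, 47.7% G and C) held no Smad box. The Smad box lay 67 bases before the first Foxp3 start and 160 bases before the Tgfbr2 start, and the Ski window held none. It is a common word, found in 49.6% of 32851 such windows. None of these 3 windows held the Runx core TGTGGT (16.8% of all windows) or the palindrome GTCTAGAC (0.213%), searched on both strands. The Ski window was 85.3% G and C and held 6 copies of the GC box GGGCGG, against 40.7% G and C and no copy in the Foxp3 window and 59.0% and no copy in the Tgfbr2 window. The GC box occurs in 35.7% of all windows. A match of letters is a description of the window and does not show a bound site.

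Foxp3 (chromosome X, 7573644 to 7595245, plus strand, GENCODE M21 on mm10) and Lrrc32 (chromosome 7, 98489283 to 98502181, plus strand) were the members that CD4 ThpokAD cells held at the highest levels relative to both control groups. Foxp3 stood at 50.1, 11.8 and 25.6 CPM in CD4 ThpokAD replicates 1, 2 and 3, at 0.251, 0 and 0.0247 CPM in CD8 control and at 0, 4.515 and 2.33 CPM in CD4 control. Every CD4 ThpokAD library lay above every library of the other groups, with a wide spread among them and replicate 1 highest. These values came from 1005, 215 and 483 counts in CD4 ThpokAD, 6, 0 and 1 in CD8 control and 0, 79 and 40 in CD4 control. The log2 fold change of CD4 ThpokAD over CD4 control was 3.67 (SE 1.31), which was not called, and over CD8 control it was 8.29 (SE 1.69), which was. Because Foxp3 passed the filter through the CD4 ThpokAD libraries alone, the filter itself favoured a difference there, so nothing is read from the call over CD8 control. CD8 control over CD4 control gave -4.62 (SE 1.53), not called, with overlapping libraries since CD4 control replicate 1 had no count.

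The size of the Foxp3 difference depended on single libraries. Over CD4 control the log2 fold change was 3.02 without CD4 ThpokAD replicate 1, 3.09 without CD4 control replicate 1 and 4.63 without CD4 control replicate 2. Over CD8 control it was 7.62 without CD4 ThpokAD replicate 1 and 10.38 without CD8 control replicate 1, and leaving out CD4 ThpokAD replicate 1 or replicate 3, or else replicate 2 or replicate 3 of CD8 control, ended the call. CD8 control over CD4 control gave -5.21 without CD4 control replicate 1, which was called, -3.665 without CD4 control replicate 2 and -6.72 without CD8 control replicate 1. Foxp3 shares exonic bases with Ppp1r3f, Gm36995, Flicr and Ccdc22 (5.81%, 8.15%, 18.6% and 12.9% of its 4577 exonic bases). Reads shared with Ppp1r3f, Gm36995 and Ccdc22, on the other strand, cannot be assigned by strand, since the library kits do not mark it. No library had more than 26 counts for Ppp1r3f, 8 for Gm36995 or 3 for Ccdc22. Flicr lies on the same strand as Foxp3 and had no counted entry under that name, so its part in the Foxp3 counts was not tested. The other 9 members overlap no annotated gene.

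Lrrc32 was steady where Foxp3 was not. It stood at 38.8, 39.1 and 42.4 CPM in CD4 ThpokAD, at 0 in all CD8 control libraries and at 1.305, 3.14 and 3.90 CPM in CD4 control. The groups did not overlap, and the CD4 ThpokAD libraries lay close together. Over CD4 control the log2 fold change was 3.84 (SE 0.457), a 14.35-fold higher level, and it was called in all 14 alternative fits. Against CD8 control, where no read was counted, Lrrc32 was at least 1140-fold higher in CD4 ThpokAD, taking 3 counts summed over the group as the floor (0.0352 CPM). On the same floor CD8 control was at least 79-fold lower than CD4 control. The ratio of Foxp3 to Lrrc32 CPM was 1.29, 0.301 and 0.605 in CD4 ThpokAD replicates 1, 2 and 3 and 0, 1.44 and 0.597 in CD4 control replicates 1, 2 and 3. It could not be formed in CD8 control.

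**Figure D1:**
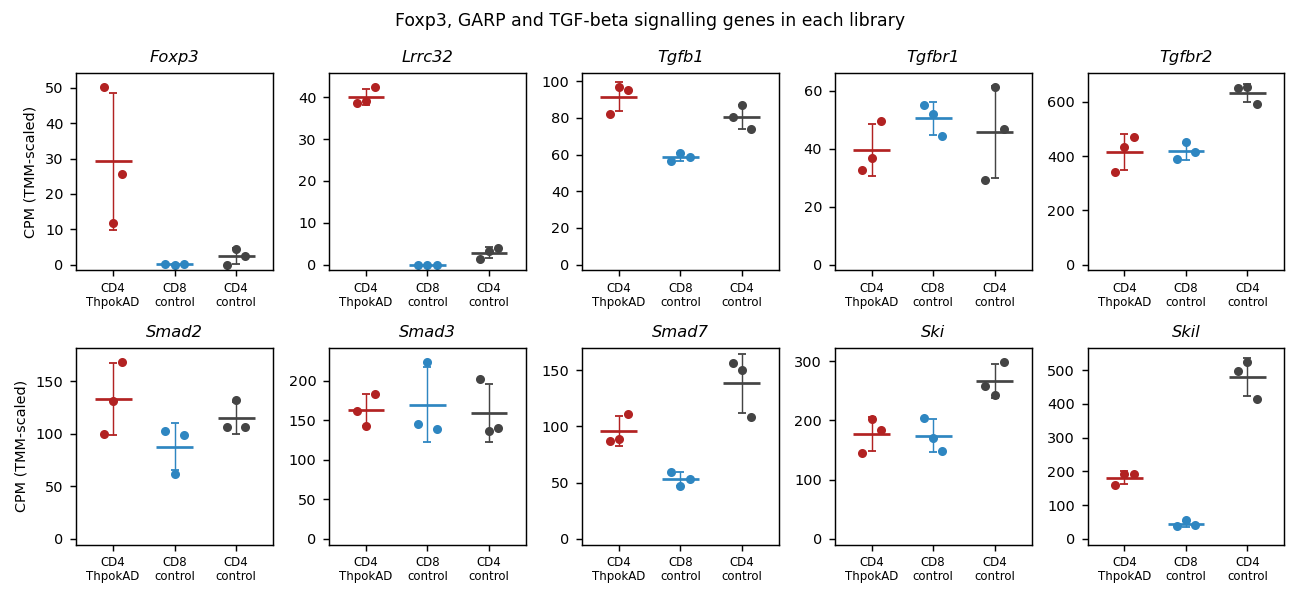
Level of each of the 10 genes in CPM (vertical axis, starting at about 0) in the 3 libraries of CD4 ThpokAD, CD8 control and CD4 control; points are libraries (replicates 1, 2 and 3 from left to right), lines are group means and bars are 1 SD. Lrrc32 lies between 38.8 and 42.4 CPM in CD4 ThpokAD with little spread, Foxp3 spreads from 11.8 to 50.1 CPM there, and Skil falls into 3 separate levels.

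GARP is also carried by platelets and megakaryocytes, so the markers of these cells were read in the same libraries. Of 10 markers, 9 had a count in CD4 ThpokAD, 10 in CD8 control and 9 in CD4 control, with a summed level of 23.5 to 61.3 CPM, 21.7 to 41.1 CPM and 65.7 to 103 CPM in that order. The integrin chain gene Itgb3 made up most of it, at 33.5 ± 23.3 CPM in CD4 ThpokAD, at 29.5 ± 10.01 CPM in CD8 control, and at 81.8 ± 17.1 CPM in CD4 control. The platelet chemokine gene Pf4 was at 0.216 ± 0.374 CPM in CD4 ThpokAD, at 0.411 ± 0.712 CPM in CD8 control, and at 1.74 ± 2.42 CPM in CD4 control. Itga2b, a defining integrin chain of platelets, had no count in CD4 ThpokAD, while Clec1b, another platelet gene, was at 0, 5.41 and 1.96 CPM there. The part of platelets in the Lrrc32 level was not tested. In such bulk samples, more cells of a type and more RNA per cell cannot be told apart.

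Foxp3 and Lrrc32 are both markers of regulatory T cells (Treg cells). All 13 Treg markers in the list had counts in CD4 ThpokAD and CD4 control and 12 of them in CD8 control, Lrrc32 being the one without. Their summed level was 831 to 1140 CPM in CD4 ThpokAD, 164 to 194 CPM in CD8 control and 749 to 820 CPM in CD4 control. Leaving out Foxp3 and Lrrc32, the other 11 summed to 1052, 886 and 763 CPM in CD4 ThpokAD replicates 1, 2 and 3, against 748, 813 and 794 CPM in CD4 control. CD4 ThpokAD replicates 1 and 2 lay above all CD4 control libraries and replicate 3 within their range. The summed markers of NK cells and of myeloid cells were also higher in CD4 ThpokAD than in CD4 control, without overlap of the sums. Of 8 NK markers 7 had a count in CD4 ThpokAD, 8 in CD8 control and 5 in CD4 control, with sums of 156 to 189, 186 to 204 and 48.1 to 58.2 CPM; Klra8 was at 0 in both CD4 groups, and Ncr1 and Klra4 were at 0 in CD4 control. Of 12 myeloid markers all had a count in CD4 ThpokAD and CD8 control and 11 in CD4 control, where Ly6g was at 0, with sums of 361 to 428, 145 to 375 and 180 to 334 CPM. Among single myeloid markers only Csf1r and Itgam were higher than in CD4 control without overlap. S100a8 and S100a9 had lower means in CD4 ThpokAD, at 5.38 and 4.53 CPM against 21.5 and 16.6 CPM in CD4 control, with overlap. The part of Treg, NK or myeloid cells within the sorts in the Foxp3 and Lrrc32 levels was not tested.

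Of 30 tested genes in a wider list of Treg-associated genes that holds no member, 4 rose and 2 fell in CD4 ThpokAD against CD4 control; the median log2 fold change was 0.458, beside 0.00349 over all genes, of which 1.81% were called higher and 0.928% lower. Itgae, the integrin alpha-E chain that TGF-beta induces in T cells, rose to 85.1, 48.9 and 65.9 CPM in CD4 ThpokAD, against 6.21, 2.515 and 0.0583 CPM in CD4 control (log2 fold change 4.51, SE 0.953, edgeR adjusted p = 0.0427). The groups did not overlap for Itgae, but the call was lost without any 1 library except CD4 control replicates 1 and 3 (adjusted p up to 0.166). The inhibitory lectin receptor gene Klrg1 rose to 234.8 ± 56.2 CPM, against 9.11 ± 2.82 CPM in CD4 control (adjusted p = 0.000286). Prdm1, which encodes the repressor Blimp1, rose to 132 ± 12.5 CPM, against 35.2 ± 8.87 CPM (adjusted p = 0.00429). Capg, an actin-capping protein gene, rose to 75.9 ± 21.6 CPM, against 32.5 ± 6.92 CPM (adjusted p = 0.0478, lost without any 1 library except CD4 ThpokAD replicate 2, at up to 0.168). Icos, a costimulatory receptor gene, fell to 825 ± 103 CPM in CD4 ThpokAD, against 1896 ± 304 CPM in CD4 control (adjusted p = 0.00624). The Cre locus gene Tnfrsf4 fell to 81.1 ± 24.2 CPM, against 378 ± 53.3 CPM (adjusted p = 0.0201, lost without any 1 CD4 control library or CD4 ThpokAD replicate 1 or 3, at up to 0.0928).

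Another 3 genes that Treg cells carry at high levels did not pass the test against CD4 control. Il2ra, the IL-2 receptor alpha chain, stood at 40.7, 16.6 and 27.2 CPM in CD4 ThpokAD, against 18.3, 12.35 and 9.79 CPM in CD4 control, with overlap (log2 fold change 1.07, SE 0.385, adjusted p = 0.213). Ikzf2, which encodes the Ikaros relative Helios, stood at 79.6, 33.0 and 58.8 CPM in CD4 ThpokAD, against 43.1, 59.95 and 39.6 CPM in CD4 control (0.265, SE 0.970, adjusted p = 0.946). Ctla4, an inhibitory receptor gene, stood at 359.5, 347 and 257 CPM in CD4 ThpokAD, against 258, 267 and 264 CPM in CD4 control (0.288, SE 0.167, adjusted p = 0.477). Libraries of the CD4 groups did not overlap for 16 of the 30 Treg-associated genes, which differed in both directions. Among those not called, Tnfrsf18, Izumo1r, Nt5e, Areg and Plagl1 were lower in CD4 ThpokAD, and Ccr8, Ikzf4, Entpd1, Il10 and Lag3 higher. Tnfrsf18, Izumo1r and Nt5e averaged 61.43, 93.73 and 50.48 CPM there, against 92.98, 153.3 and 119 CPM in CD4 control. Ccr8 and Ikzf4 averaged 23.05 and 4.598 CPM, against 7.308 and 0.8475 CPM. Within CD4 ThpokAD, Foxp3 was highest in replicate 1 and lowest in replicate 2. Of the 30 Treg-associated genes, 7 had that order of libraries (Capg, Ccr4, Ccr8, Ikzf2, Il2ra, Itgae and Swap70) and 23 had another, beside 14.2% of all tested genes with the Foxp3 order. Ctla4 was lowest in replicate 3, as were 16 of the 30 in all. Of these, 9 had the order 1, 2, 3 from highest to lowest and 7 the order 2, 1, 3, beside 17.5% and 16.5% of all tested genes. Lrrc32 had another order too.

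**Figure D2:**
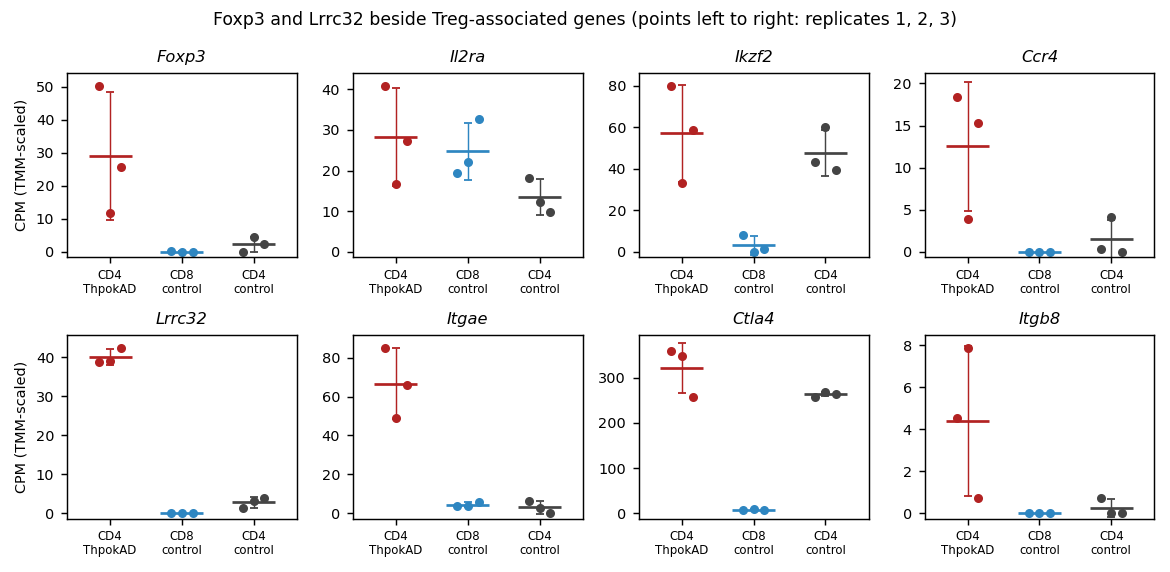
Level in CPM (vertical axes) of Foxp3, Lrrc32 and 6 other genes in each library of CD4 ThpokAD, CD8 control and CD4 control; points are replicates 1, 2 and 3 from left to right, lines are group means and bars are 1 SD. In CD4 ThpokAD, Foxp3 spreads from 11.8 to 50.1 CPM and Lrrc32 from 38.8 to 42.4 CPM, and the genes do not share 1 order of libraries.

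Against CD8 control, 16 of the 30 Treg-associated genes rose and 1 fell in CD4 ThpokAD (median log2 fold change 3.25, beside -0.00595 over all genes, of which 4.63% were called higher and 1.91% lower). Ctla4 averaged 321 ± 55.9 CPM in CD4 ThpokAD, against 7.96 ± 1.485 CPM in CD8 control (adjusted p = 2.64e-06), and Tigit, another inhibitory receptor gene, averaged 109 ± 31.7 CPM, against 9.76 ± 1.002 CPM (adjusted p = 6.76e-05). The gene that fell was Nt5e, which encodes the ectoenzyme CD73, at 50.5 ± 19.1 CPM, against 132 ± 31.4 CPM (adjusted p = 0.0301, lost without CD4 control replicate 3, CD4 ThpokAD replicate 2 or CD8 control replicate 2 or 3, at up to 0.0852); it was named after its values were seen. Itgae also rose against CD8 control, where it was at 4.46 ± 1.26 CPM (adjusted p = 0.0395, lost without any 1 library except CD4 control replicates 1 and 3, at up to 0.124). In CD8 control against CD4 control, 1 of the 30 rose and 15 fell (median -1.84, beside 0.0101 over all genes, of which 5.13% were called higher and 6.55% lower). Klrg1 was the one that rose, at 202 ± 54.8 CPM in CD8 control against 9.11 ± 2.82 CPM in CD4 control (adjusted p = 4.83e-05). Areg, which encodes the growth factor amphiregulin, had no count in CD8 control and was at least 973-fold lower there than in CD4 control, and at least 392-fold higher in CD4 ThpokAD than in CD8 control.

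Factors that act on the Foxp3 locus were read from a separate list of 18 genes, all tested. In CD4 ThpokAD against CD4 control 1 rose and 1 fell (median log2 fold change -0.288), where 2.74% of all tested genes were called. The maintenance methyltransferase gene Dnmt1 rose to 276 ± 38.2 CPM, against 162 ± 17.1 CPM (adjusted p = 0.0363, lost in every fit that left out 1 library other than CD8 control replicate 1 or 2, at up to 0.151). Stat5b, which carries IL-2 signals, fell to 278 ± 46.7 CPM, against 474 ± 22.8 CPM (adjusted p = 0.025, lost without any 1 CD4 control library or CD4 ThpokAD replicate 1 or 3, at up to 0.099). Runx1, a partner of Foxp3, was at 93.2 ± 15.01 CPM in CD4 ThpokAD, against 107 ± 9.49 CPM in CD4 control (adjusted p = 0.621). In CD8 control against CD4 control 11 of the 18 fell and none rose (median -0.857), where 6.55% of all tested genes were called lower. In CD4 ThpokAD against CD8 control 6 rose and none fell (median 0.57), where 4.63% were called higher. The orphan receptor genes Nr4a1 and Nr4a2, early targets of TCR signals, were among those that differed in both: Nr4a1 was at 2040 ± 320 CPM in CD4 ThpokAD, at 4.57 ± 2.72 CPM in CD8 control, and at 2303 ± 166 CPM in CD4 control. Rel, an NF-kB subunit gene, was at 232 ± 30.0, 46.35 ± 12.5 and 349 ± 44.0 CPM in the same order (adjusted p = 3e-04 for CD4 ThpokAD over CD8 control and 5.83e-05 for CD8 control over CD4 control).

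Tgfb1 (chromosome 7, 25687002 to 25705077), the ligand gene, was at 82.4, 96.6 and 95.3 CPM in CD4 ThpokAD, at 56.7, 60.99 and 58.9 CPM in CD8 control, and at 80.3, 87.2 and 73.8 CPM in CD4 control. Every CD8 control library was below all libraries of both CD4 groups, which overlapped with each other. The log2 fold change was 0.185 (SE 0.133) for CD4 ThpokAD over CD4 control, -0.451 (SE 0.133) for CD8 control over CD4 control and 0.6355 (SE 0.133) for CD4 ThpokAD over CD8 control. The last of these was called, and its call was lost without CD4 ThpokAD replicate 2 or 3 or any 1 CD8 control library. Per kb of exon, Tgfb1 averaged 18.1 CPM in CD4 ThpokAD, above Lrrc32 at 8.55 and Foxp3 at 6.37. In CD4 control, Tgfb1 stood at 16.0 CPM per kb, with Lrrc32 at 0.594 and Foxp3 at 0.499.

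The receptor genes did not share a pattern. Tgfbr2 (chromosome 9, 116084293 to 116175360, minus strand) was at 343, 433 and 470.5 CPM in CD4 ThpokAD, at 389, 452 and 414 CPM in CD8 control, and at 653, 653 and 594 CPM in CD4 control. CD4 ThpokAD and CD8 control overlapped, and both lay below all CD4 control libraries. The log2 fold change over CD4 control was -0.608 (SE 0.131) for CD4 ThpokAD and -0.599 (SE 0.131) for CD8 control, both called, and -0.0091 (SE 0.13) for CD4 ThpokAD over CD8 control. For CD4 ThpokAD the call was lost whichever of the 9 libraries was left out, and for CD8 control it did not survive leaving out replicate 1 or 2 of CD4 control, or replicate 1 or 3 of CD8 control. Tgfbr1 (chromosome 4, 47353222 to 47414931) was at 32.5, 36.6 and 49.6 CPM in CD4 ThpokAD, at 55.2, 51.9 and 44.2 CPM in CD8 control, and at 29.1, 61.1 and 46.9 CPM in CD4 control. Its 3 groups overlapped and it was called in no comparison, with log2 fold changes of -0.2085 (SE 0.279) for CD4 ThpokAD and 0.142 (SE 0.279) for CD8 control over CD4 control. Per kb of exon, Tgfbr2 was the highest of the 10 genes in all 3 groups, at 50.7 CPM in CD4 ThpokAD, 51.1 in CD8 control and 77.4 in CD4 control, and Tgfbr1 stood at 6.06, 7.72 and 7.0.

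The receptor-activated Smads were called in no comparison. Smad3 (chromosome 9, 63646767 to 63757994) ranged over 143 to 184 CPM in CD4 ThpokAD, 139 to 224 CPM in CD8 control and 137 to 202 CPM in CD4 control, all overlapping. Its log2 fold change was 0.0306 (SE 0.226) for CD4 ThpokAD over CD4 control and 0.0892 (SE 0.226) for CD8 control over CD4 control. Smad2 (chromosome 18, 76241580 to 76310963) was at 99.5, 131 and 169 CPM in CD4 ThpokAD, at 102, 62.0 and 98.99 CPM in CD8 control, and at 106, 132 and 106 CPM in CD4 control. All CD8 control libraries were below those of CD4 control, but Smad2 was not called (log2 fold change -0.386, SE 0.244). CD4 ThpokAD over CD4 control gave 0.2145 (SE 0.244), and over CD8 control 0.6005 (SE 0.244), neither called. Smad4, the common partner and no member, was at 144 ± 31.3 CPM in CD4 ThpokAD, at 178 ± 36.5 CPM in CD8 control, and at 173 ± 21.4 CPM in CD4 control (adjusted p = 0.625 for CD4 ThpokAD over CD4 control).

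Of the 3 inhibitors, Skil was called in all 3 comparisons, Smad7 in both that involve CD8 control and Ski in CD8 control against CD4 control. Skil (chromosome 3, 31095058 to 31122577) was at 158, 192 and 192 CPM in CD4 ThpokAD, at 38.8, 55.4 and 40.85 CPM in CD8 control, and at 498, 525 and 416 CPM in CD4 control. The 3 groups formed 3 separate levels, with CD4 ThpokAD between the controls. Its log2 fold change was -1.41 (SE 0.169) for CD4 ThpokAD over CD4 control, -3.415 (SE 0.182) for CD8 control over CD4 control and 2.01 (SE 0.172) for CD4 ThpokAD over CD8 control. All 3 were called, and stayed so in each of the 14 alternative fits. Per kb of exon, Skil was at 18.6 CPM in CD4 ThpokAD, 4.64 in CD8 control and 49.5 in CD4 control, and in CD4 control it stood next to its relative Ski at 47.9.

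Smad7 (chromosome 18, 75367529 to 75395935), itself induced by TGF-beta, had the same order of groups. It was at 87.45, 88.9 and 111 CPM in CD4 ThpokAD, at 59.3, 46.6 and 53.4 CPM in CD8 control, and at 156, 150 and 108 CPM in CD4 control. CD4 ThpokAD and CD4 control overlapped through ThpokAD replicate 3 and control replicate 3, and every CD8 control library was lower than both. The log2 fold change was -0.529 (SE 0.182) for CD4 ThpokAD over CD4 control, not called, -1.38 (SE 0.185) for CD8 control over CD4 control, called in all 14 alternatives, and 0.851 (SE 0.183) for CD4 ThpokAD over CD8 control. The last was called, but not without any 1 CD4 ThpokAD or CD8 control library. Ski (chromosome 4, 155154075 to 155222592, minus strand) was at 145, 201.5 and 184 CPM in CD4 ThpokAD, at 203, 170 and 148.5 CPM in CD8 control, and at 258, 242 and 299 CPM in CD4 control. Like Tgfbr2 it was lower in both CD4 ThpokAD (-0.590, SE 0.168, not called) and CD8 control (-0.615, SE 0.168, called) than in CD4 control, without overlap. The Ski call in CD8 control ended on leaving out any 1 CD4 control library, or replicate 2 or 3 of either other group.

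**Figure D3:**
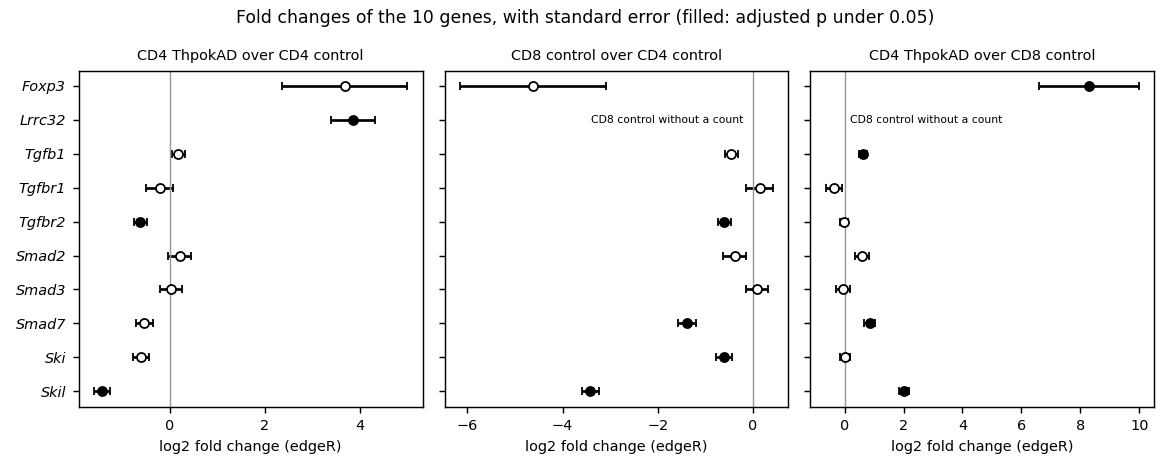
Fitted log2 fold change of each gene (horizontal axes, with their own scales) with its standard error in the 3 comparisons; filled points were called. Skil is called in all 3, at -1.41, -3.415 and 2.01, and Lrrc32 is not drawn where CD8 control had no count.

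Counted over the set, 3 of the 10 members were called in CD4 ThpokAD against CD4 control (Lrrc32 higher, Tgfbr2 and Skil lower), where 2.74% of all tested genes were called. In CD8 control against CD4 control 5 were called, all lower (Lrrc32, Tgfbr2, Smad7, Ski and Skil), where 11.7% of genes were called and 6.55% were called lower. In CD4 ThpokAD against CD8 control 5 were called, all higher (Foxp3, Lrrc32, Tgfb1, Smad7 and Skil), where 6.54% of genes were called and 4.63% were called higher. Libraries did not overlap for 5, 7 and 5 of the 10 members in these comparisons, beside 25.7%, 33.9% and 27.1% of all tested genes. The shares of tested genes without overlap were 13.2% higher and 12.5% lower in the first comparison, 17.3% and 16.6% in the second and 14.6% and 12.6% in the third. Foxp3 and Lrrc32 were higher and Tgfbr2, Ski and Skil lower in the first, all 7 members were lower in the second, and all 5 were higher in the third. Since the members were chosen with their levels known, nothing is read from these counts, and the comparisons share libraries. The median log2 fold change of the members was -0.089, -0.607 and 0.618 in the same order.

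Across the 9 libraries the members fell into a few patterns, given here as Pearson correlations of log2 CPM between genes that share libraries and group structure. Smad7 and Skil correlated at 0.949 and Lrrc32 and Tgfb1 at 0.928. Foxp3 and Lrrc32 correlated at 0.904, and Tgfbr2 and Ski at 0.835. Smad3 correlated with no other member above 0.0576. Outside the set, the genes most like Foxp3 were Actg2 (0.978), Lrrn3 (0.971), Gpsm2 (0.969), Ticrr (0.966) and E2f8 (0.959). Those most like Lrrc32 were Sh2d2a (0.984), Fasl (0.978), Mmp10 (0.976), Klf10 (0.975) and Pmaip1 (0.975). Fasl, the death ligand gene, stood at a mean of 961 CPM in CD4 ThpokAD, at 127 CPM in CD8 control, and at 377 CPM in CD4 control, and Actg2, a smooth muscle actin gene, 39.9, 0.0139 and 1.78 CPM.

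The rest of the TGF-beta pathway was read from a list of 53 genes, of which 41 were tested. In CD4 ThpokAD against CD4 control 1 of the 41 fell and none rose (median log2 fold change -0.174), close to the 2.74% of all tested genes that were called. The gene that fell was Tgif1, a homeodomain corepressor of Smads, at 374, 438 and 398 CPM in CD4 ThpokAD, against 771, 776 and 682 CPM in CD4 control. Its log2 fold change was -0.881 (SE 0.103, edgeR adjusted p = 0.00291), and the call held in all 14 alternatives. In CD8 control Tgif1 was at 37.2, 40.0 and 37.6 CPM, below both CD4 groups, so that its groups had the same order as those of Skil (CD8 control over CD4 control -4.28, SE 0.117, adjusted p = 7.44e-07; CD4 ThpokAD over CD8 control 3.40, SE 0.113, adjusted p = 2.03e-06).

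In CD8 control against CD4 control 7 of the 41 fell and 1 rose (median -0.608), where 6.55% of all tested genes were called lower and 5.13% higher. In CD4 ThpokAD against CD8 control 5 rose and none fell (median 0.561), where 4.63% were called higher. Furin, which cleaves the TGF-beta precursor, was at 155 ± 13.6 CPM in CD4 ThpokAD, at 72.5 ± 26.9 CPM in CD8 control, and at 254 ± 38.0 CPM in CD4 control. It fell in CD8 control (adjusted p = 0.00314), was not called in CD4 ThpokAD against CD4 control (0.227), and rose in CD4 ThpokAD against CD8 control (0.0447), a call kept in none of the fits leaving out 1 library but that without CD8 control replicate 2, at up to 0.119. The pseudoreceptor gene Bambi, at 18.4 ± 8.07 CPM in CD4 ThpokAD, at 0.323 ± 0.518 CPM in CD8 control, and at 26.7 ± 7.13 CPM in CD4 control, fell in CD8 control against CD4 control (adjusted p = 0.00855). Bambi also rose in CD4 ThpokAD against CD8 control (0.0185, lost without CD4 ThpokAD replicate 3 or CD8 control replicate 2, at up to 0.0552). Ldlrad4, an inhibitor of receptor signalling, was at 23.1 ± 5.33, 7.81 ± 2.86 and 35.5 ± 8.44 CPM in the same order (adjusted p = 0.00358 for CD8 control over CD4 control). The corepressor gene Tgif2 was at 3.10 ± 1.23, 0.2985 ± 0.361 and 9.49 ± 4.345 CPM (adjusted p = 0.011 for CD8 control over CD4 control). Nrros, a relative of GARP that also holds latent TGF-beta, was the one that rose in CD8 control, to 144 ± 34.3 CPM, against 54.1 ± 4.07 CPM in CD4 control (adjusted p = 0.00271), opposite to Lrrc32. In CD4 ThpokAD, Nrros stood at 93.3 ± 17.5 CPM.

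**Figure D4:**
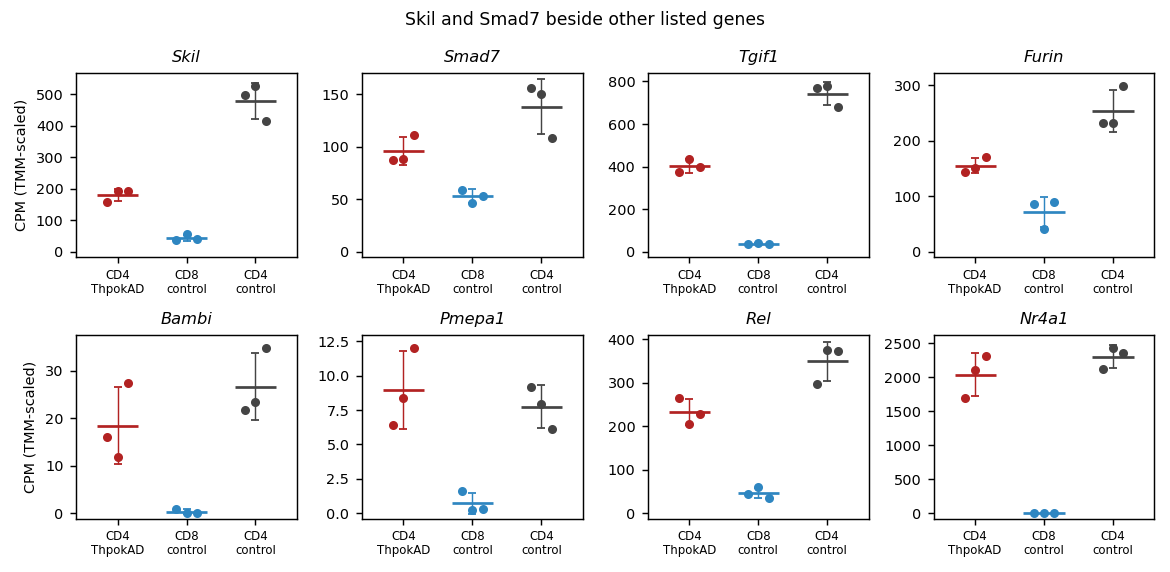
Level in CPM (vertical axes) of Skil, Smad7 and 6 listed genes in each library of CD4 ThpokAD, CD8 control and CD4 control; points are replicates 1, 2 and 3 from left to right, lines are group means and bars are 1 SD. Skil, Tgif1, Furin and Rel share an order of groups without overlap, with CD8 control lowest and CD4 control highest. Smad7, Bambi and Nr4a1 have the same order of means, with overlap of the CD4 groups. The mean of Nr4a1 is at 2040 CPM in CD4 ThpokAD, at 4.57 CPM in CD8 control, and at 2303 CPM in CD4 control.

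The TCR-induced genes Nr4a1 and Rel, whose values stand above, moved with Skil, Smad7 and Tgif1 between CD8 control and the CD4 groups, and their part in those differences was not tested. Between CD4 ThpokAD and CD4 control, Nr4a1 was at 1690 to 2317 CPM and 2117 to 2434 CPM, which overlap. Rel was at 205 to 264 CPM in CD4 ThpokAD and 298 to 374 CPM in CD4 control, without overlap, and Skil and Tgif1 did not overlap either. Among the activating integrins, Itgav was at 64.15 ± 17.6 CPM in CD4 ThpokAD, at 45.6 ± 19.0 CPM in CD8 control, and at 65.8 ± 9.92 CPM in CD4 control, called in no comparison. Its partner Itgb8 was at 4.54, 7.88 and 0.743 CPM in CD4 ThpokAD, without a count in CD8 control and at 0.7455, 0 and 0 CPM in CD4 control, called in no comparison either. Dendritic cell markers summed to 340 to 753 CPM in CD4 ThpokAD, 111 to 157 CPM in CD8 control and 353 to 788 CPM in CD4 control, and their part in the pathway values was not tested. The co-receptor gene Tgfbr3 varied widely within groups, at 20.5 ± 14.5, 10.8 ± 11.8 and 40.2 ± 27.7 CPM. In the pathway list, which holds no member, no TGF-beta superfamily receptor, Smad or gene of the kinase branch through Map3k7 was called in any comparison.

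**Figure D5:**
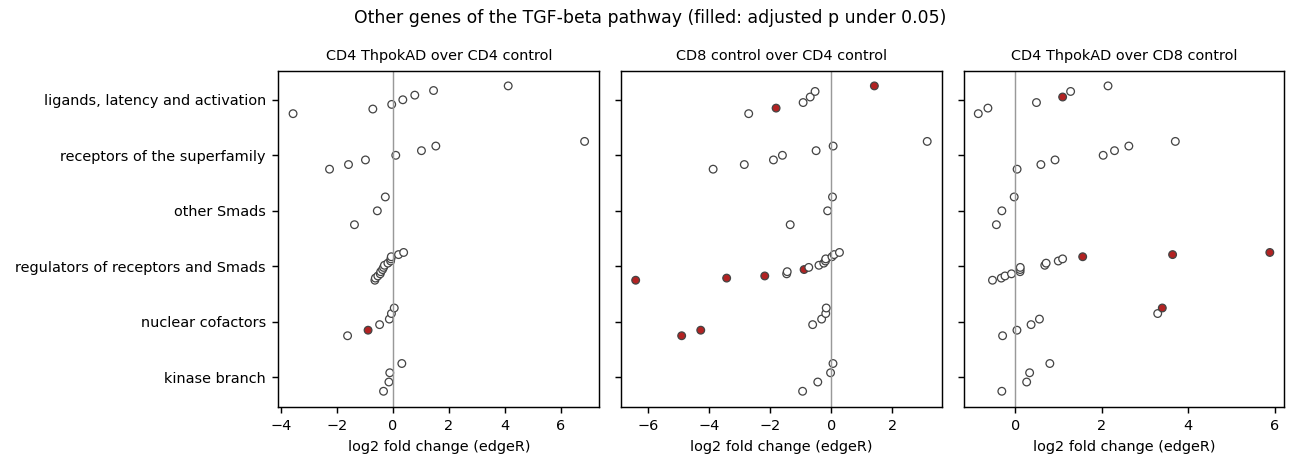
Fitted log2 fold changes (horizontal axes, with their own scales) of the other TGF-beta pathway genes by role in the 3 comparisons; each point is a gene, filled where called, and Itgb8 is not drawn where CD8 control had no count. In CD4 ThpokAD over CD4 control the only filled point is Tgif1, at -0.881.

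Genes that TGF-beta induces were read from a list of 9, of which 6 were tested and 2 (Pmepa1 and Ldlrad4) also stand in the pathway list. Against CD4 control, Itgae alone was called in CD4 ThpokAD, where 2.74% of all tested genes were called and 1.81% were called higher. That call was lost in 9 of the 14 alternative fits. In CD8 control against CD4 control 4 of the 6 fell and none rose (median log2 fold change -2.81), where 6.55% of all tested genes were called lower. In CD4 ThpokAD against CD8 control 5 of the 6 rose and none fell (median 3.69), where 4.63% were called higher. Tgfbi, a matrix protein gene, was at 25.5, 16.8 and 23.3 CPM in CD4 ThpokAD, at 4.77, 2.23 and 2.145 CPM in CD8 control, and at 8.88, 14.5 and 18.2 CPM in CD4 control. Tgfbi rose in CD4 ThpokAD against CD8 control (log2 fold change 2.845, SE 0.440, adjusted p = 0.00646), while CD4 ThpokAD and CD4 control overlapped. Cdkn1a, a cell cycle inhibitor gene also induced by p53, was at 50.9 ± 4.28 CPM in CD4 ThpokAD, at 0.822 ± 0.762 CPM in CD8 control, and at 62.6 ± 5.48 CPM in CD4 control (adjusted p = 0.00216 over CD8 control). Pmepa1, a feedback inhibitor of Smad activation, was at 8.95 ± 2.85 CPM in CD4 ThpokAD, at 0.717 ± 0.756 CPM in CD8 control, and at 7.75 ± 1.55 CPM in CD4 control. It fell in CD8 control against CD4 control (adjusted p = 0.0191, lost without CD4 control replicate 1 or 2 or CD8 control replicate 3, at up to 0.06).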

How the data were processed

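Gene counts of 9 libraries, 3 per group, were analysed. The deposited counts are whole numbers for each gene symbol, with no scaling by the authors. Per the submitters' processing notes, bcl2fastq 2.17, Trimmomatic, STAR, HTSeq, DESeq2 and mm10 were used; the role of each, the annotation and the strand setting are not given in the sources used here. A second deposited table, the same genes scaled by the authors, was not used. Genes were filtered with filterByExpr (minimum count 10, minimum total 15) and tested in 1 fit of all libraries with edgeR 4.0.16 in R 4.3.3 (quasi-likelihood test, TMM, Benjamini-Hochberg adjustment over 15738 genes). Standard errors are log2 fold changes over the root of the F statistic. Members and lists were chosen with earlier results of these data known. Listed genes named were taken from those called, up to 6 per list and comparison by adjusted p, plus 10 fixed ones. Nt5e, Tnfrsf18, Izumo1r, Ccr8, Ikzf4 and the genes with the Foxp3 order of libraries were added. DESeq2 1.42.0, RLE scaling, no filter, 6-library fits, a replicate block and leaving out each library were the alternatives. The scripts were tested on simulated data. A missed call does not show equal levels. The labels do not say that replicates are separate animals; p-values measure the spread between these libraries, which may be technical. Bounds cover counting error only.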

Additional observations from a re-analysis of the deposited data

How the results depend on the processing

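Leaving out 1 library at a time gave 181 to 477 called genes in CD4 ThpokAD against CD4 control (431 with all), 1058 to 1667 in CD8 control against CD4 control (1839) and 589 to 788 in CD4 ThpokAD against CD8 control (1030). Members called ranged over 2 to 2, 3 to 5 and 2 to 5 in the same order, other pathway genes over 1 to 2, 6 to 9 and 2 to 5, response genes over 0 to 1, 3 to 4 and 2 to 5, Treg-associated genes over 3 to 5, 14 to 17 and 13 to 16, and Foxp3 regulators over 0 to 2, 9 to 11 and 5 to 6. DESeq2 called 1290, 2977 and 2171 genes, 3, 13 and 10 other pathway genes, and 11 Treg-associated genes in CD4 ThpokAD against CD4 control. In CD4 ThpokAD against CD4 control, a fit of only the 6 libraries compared called 603 genes, among them 2 other pathway genes and 0 response genes. In CD4 ThpokAD against CD8 control such a fit called 2 other pathway genes and 3 response genes. Without a filter on low counts 344 genes were called in CD4 ThpokAD against CD4 control, among them 1 Foxp3 regulator. Deviations from the group mean correlated at -0.0454 to 0.062 between same-numbered libraries of different groups, and at -0.0475 to 0.0316 between different-numbered ones. The labels do not say whether the numbers pair the libraries, and with 3 libraries per group such small values do not settle it. With the replicate number as a block, 281 genes were called in CD4 ThpokAD against CD4 control, with 0 response genes and 0 Foxp3 regulators, and 684 in CD4 ThpokAD against CD8 control, with 2 members and 3 response genes. No called fold change of a member changed sign in these alternatives. Of 419 member fold changes under them 401 kept their sign; those that turned were uncalled and near 0: Tgfbr1 over CD4 control (-0.45 to 0.055 in CD4 ThpokAD, -0.099 to 0.41 in CD8 control), Smad3 in all 3 comparisons (-0.07 to 0.23, -0.16 to 0.29 and -0.19 to 0.18), and Tgfbr2 (-0.11 to 0.10) and Ski (-0.08 to 0.14) in CD4 ThpokAD over CD8 control. The cause of each change was not tested. Foxp3 over CD4 control was called in 0 of 14 alternatives. Low counts limit Foxp3 in both control groups and Lrrc32 in CD8 control.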
